A study of Juglans regia with 15 samples.

Results

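The youngest and the mature endopleura of the walnut (Juglans regia) were compared: 3 libraries taken 35 days after pollination (DAP) and 3 libraries taken at 147 DAP, out of 15 libraries at 5 stages. The endopleura is the thin, papery seed coat that encloses the walnut kernel. All libraries came from untreated nuts of 1 cultivar, "Linzaoxiang", and every library pooled the endopleuras of 7 nuts, so the replicates show the spread between pools and not between single nuts. Whether the pools came from separate trees is not given in the sources used here. The study examined in this tissue the expression of JrANR, a gene at a locus for the color of the endopleura. The values are FPKM, fragments of a gene scaled to transcript length and to the mapped fragments of the library, for 39414 genes in the authors' own walnut genome. A gene was tested where it reached 1 FPKM in at least 3 of the 15 libraries, which left 22310 genes.

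A seed coat grows from the integuments of the ovule. Its cells first divide and enlarge together with the fruit, then fill with condensed tannins and other phenolics, and finally die and dry as the seed matures. Condensed tannins (proanthocyanidins) are built by the flavonoid pathway, which starts at chalcone synthase and branches at anthocyanidin reductase. Gene functions below are those listed in the study's supplementary gene tables, which hold genes of genomic regions under selection or associated with traits or climate and not the whole genome. They gave a domain or a description for 1748 of the 22310 tested genes (7.84%), so most of the changed genes, and all of the 10 most abundant ones of each stage, have no function here.

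The 6 libraries were close to each other in depth. Values that rest on single reads gave relative depths between 0.829 and 1.09, and all 15 pairs of libraries came within 0.01 of a common solution on the natural log scale, but the absolute number of reads is unknown. Over the tested genes, whose values depend on each other, the libraries of 35 DAP correlated with r between 0.985 and 0.992, those of 147 DAP with r between 0.976 and 0.982, and libraries of different stages with r between 0.605 and 0.648. The 3 markers of seed coat (chalcone synthase, JrANR and JrLDOX) summed to 125 to 157 FPKM in the young libraries and 1280 to 2150 FPKM in the mature ones, and 2 of the 3 rose. The markers of green tissue, 2 chlorophyll A-B binding proteins and a small chain of RuBisCO, summed to between 31.0 and 70.1 FPKM over the 6 libraries, and the RuBisCO gene stayed under 0.7 FPKM in each of them.

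The transcriptome of the mature seed coat differed from that of the youngest in most genes. Of the 22310 tested genes, 15098 (67.7%) changed between 35 and 147 DAP at an adjusted p under 0.05 in limma, on the log2(FPKM + 1) scale. At 147 DAP 5349 genes (24.0%) were higher and 9749 genes (43.7%) were lower. The 3 mature libraries lay above all 3 young ones in 6159 genes (27.6%) and below all of them in 10622 (47.6%). A change of at least 1 on the log2 scale was seen in 3043 of the higher genes and 5931 of the lower genes, and a change of at least 5 in 223 and 272 genes. The very largest changes lay on the other side: 46 genes rose by at least 8 on the log2 scale and 26 fell by as much. The balance of directions depends on the scaling. Of the changed genes 35.4% were higher with FPKM as deposited, 25.0% after rescaling every library to the same sum, 46.6% after median-ratio scaling and 50.7% after quantile normalization. Over all tested genes, the median log2 change was -0.27 with FPKM as deposited and lay between -0.53 and 0.05 with these other scalings, so the changes of single genes and groups below should be read against -0.27. In these pooled tissues, fewer cells of a type and less RNA per cell cannot be told apart.

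Fewer genes reached 1 FPKM in the mature seed coat than in the youngest, and a handful of them held a large part of the total. In the 3 libraries of 35 DAP the 10 highest genes held 6.77%, 6.68% and 7.36% of the summed FPKM. In the 3 libraries of 147 DAP they held 28.2%, 22.2% and 26.6%. The 2 stages did not overlap, with a mean of 6.94% ± 0.37 (SD, n = 3) against 25.7% ± 3.12 (SD, n = 3), and the two-sided exact permutation p was 0.10, the smallest that 3 libraries against 3 allow. The 100 highest genes held 19.5% ± 0.565 (SD, n = 3) at 35 DAP and 39.0% ± 3.64 (SD, n = 3) at 147 DAP. As a result 1193, 1195 and 1071 genes were needed to reach 50% of the FPKM sum in the libraries of 35 DAP, but only 261, 502 and 314 in those of 147 DAP. Replicate 2 of 147 DAP was the least concentrated of its stage in each of these measures. The number of genes with at least 1 FPKM was 20541 to 20849 per library at 35 DAP and 18638 to 19222 at 147 DAP. Neither trait was particular to 147 DAP. The 10 highest genes of each library held 18.5%, 18.2% and 16.1% at 63 DAP and 18.6%, 18.8% and 18.7% at 91 DAP. At 119 DAP they held 19.3%, 24.7% and 23.9%, which overlaps 147 DAP. Genes with at least 1 FPKM numbered 18990, 18900 and 19101 at 91 DAP, within the range of 147 DAP. The sum of FPKM over all genes was higher at 147 DAP, at 1006380 to 1113620 against 851621 to 881732. Outside of the 10 highest genes of each library the sums overlapped, at 770108 to 799096 for 147 DAP and 794341 to 816827 for 35 DAP (exact permutation p = 0.30, two-sided, n = 3 per stage). With 3 libraries per stage this test cannot show that the sums were equal. FPKM is a value per length of transcript, so these are shares of transcript abundance and not of reads.

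**Figure D1:**
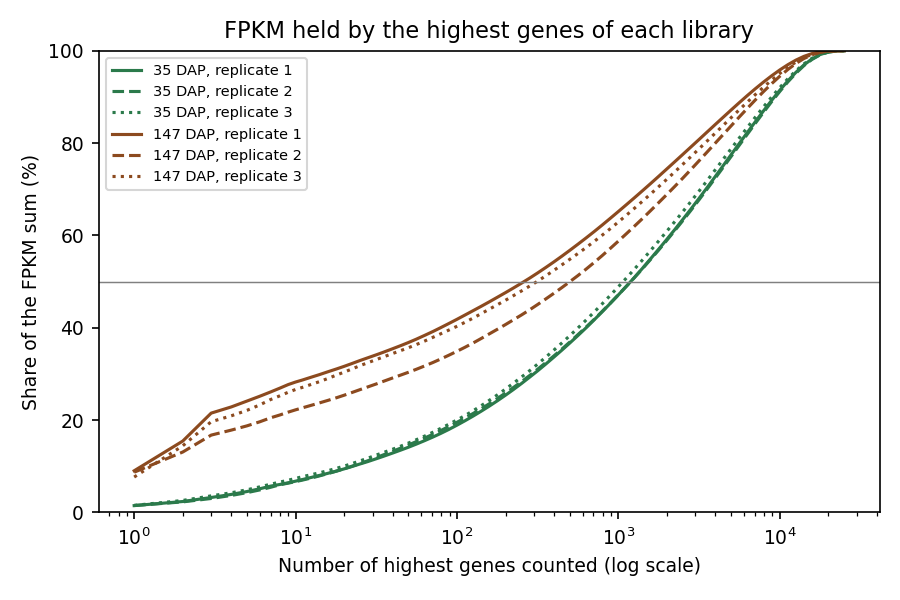
Cumulative share of the FPKM sum (y axis, percent) against the number of highest genes counted (x axis, log scale) in the 3 libraries of 35 DAP (green) and the 3 of 147 DAP (brown). The grey line marks 50%, which the libraries of 147 DAP reach with 261 to 502 genes and those of 35 DAP with 1071 to 1195 genes.

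A single gene was among the 10 highest at both stages, and 25 were among the 100 highest at both. None of the 10 highest at either stage has an annotation, so they are given by identifier and position. The shared gene was JreChr11G12006 (chromosome 11, 36158131 to 36158738). Its FPKM was 7403, 6275 and 8756 in the libraries of 35 DAP and 100499, 87687 and 80417 in those of 147 DAP. It was the third highest gene at 35 DAP and the highest at 147 DAP, and its log2 change was 3.59, with a standard error of 0.72 (limma, adjusted p = 0.000485). Without the filter on low values this call was lost (adjusted p = 0.167). In each library of 147 DAP this 1 gene held between 7.66% and 9.02% of the FPKM sum. The 3 highest genes of each library held 19.3% ± 2.40 (SD, n = 3).

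The second and the third gene at 147 DAP were far less abundant in the young seed coat. JreChr03G12755 (chromosome 3, 43678686 to 43679380) was listed at 0 in all 3 libraries of 35 DAP and reached 67417, 36886 and 71048 FPKM at 147 DAP. It had the largest rise of all tested genes, with a log2 change of 15.78 (standard error 0.64, adjusted p = 4.98e-11 from limma). It appeared step by step, with means of 109, 10229 and 32562 FPKM at the 3 stages in between. JreChr09G11777 (chromosome 9, 33535368 to 33535717) had 143, 287 and 97.9 FPKM at 35 DAP and 71630, 43979 and 54756 FPKM at 147 DAP. Replicate 2 of 147 DAP was the lowest of its stage for both genes, yet far above every library of 35 DAP. JreChr04G11872, JreChr09G11130, JreChr08G10429 and JreChr07G12793 were under 0.35 FPKM in every library of 35 DAP and between 3927 and 14980 FPKM in every library of 147 DAP. JreChr05G12767 went from a mean of 2.60 to 6364 FPKM and JreChr07G11037 from 136 to 9214. JreChr09G11368 was already abundant at 35 DAP, with a mean of 2154 FPKM, and had 8769 at 147 DAP. As a set chosen at 147 DAP, these 10 genes held on average 1.15% of the FPKM sum at the youngest stage, then 4.62%, 8.08% and 14.02%, and 25.5% at maturity. They are short genes, spanning 350 to 2209 bases from first to last base, introns included.

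The most abundant genes of the young seed coat mostly went down. JreChr11G11555 (chromosome 11, 32303361 to 32303834) had 7566, 6741 and 9470 FPKM at 35 DAP and 0.449, 0.626 and 2.04 FPKM at 147 DAP. This was the largest fall of all tested genes, with a log2 change of -11.99 (standard error 0.27, adjusted p = 3.57e-13 from limma). Its mean was 424 FPKM at 63 DAP and 6.18 FPKM at 91 DAP. JreChr01G13609 fell from a mean of 3297 to 2.99 FPKM, JreChr01G12393 from 5349 to 71.0 and JreChr01G11068 from 5101 to 65.2. JreChr10G12046 and JreChr11G12183 fell to means of 276 and 148 FPKM, and JreChr05G12585 fell by 1.31 on the log2 scale. For JreChr11G12183 the course was not steady. Its means were 0.677 and 0.905 FPKM at 91 and 119 DAP, and its libraries of 147 DAP had 83.0, 67.7 and 292 FPKM. JreChr09G12589 had means of 5054 and 3258 FPKM and did not pass the test (adjusted p = 0.0604 from limma). The highest gene at 35 DAP, JreChr12G11251, had its peak in between. Its stage means were 12911, 63805, 60034, 50017 and 3863 FPKM in order of age. Its fall between the extremes (log2 change -2.00, adjusted p = 0.0173 from limma) was lost without any 1 of the 3 libraries of 35 DAP or without replicate 1 of 147 DAP (adjusted p of 0.0626 to 0.114), with median-ratio scaling (adjusted p = 0.0926) and without the filter on low values (adjusted p = 0.274). As a set, the 10 highest genes of 35 DAP did not lose share. They held on average 6.86% of the sum at 35 DAP, then 12.5%, 13.5% and 10.6%, and 9.32% at 147 DAP. In the libraries of 147 DAP JreChr11G12006 alone held 7.66% to 9.02% of the sum.

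**Figure D2:**
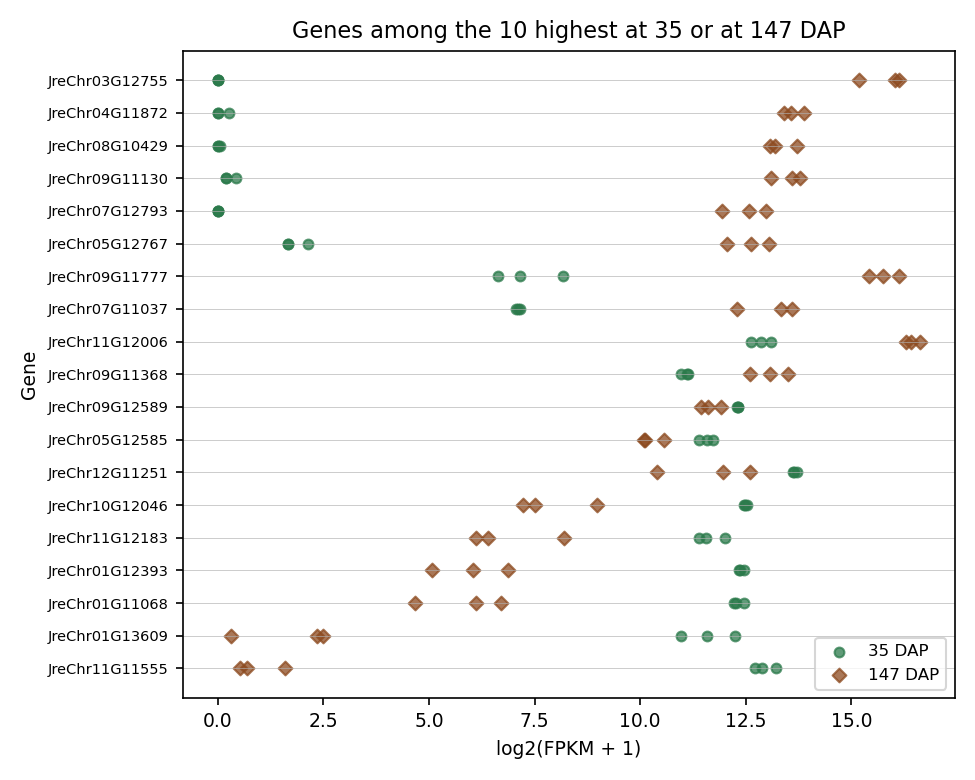
log2(FPKM + 1) of each library (x axis) for the 19 genes among the 10 highest at 35 DAP or at 147 DAP (rows, ordered by their log2 change). Green circles are the 3 libraries of 35 DAP and brown diamonds those of 147 DAP. The 5 genes in the top rows lie near 0 at 35 DAP and above 11 at 147 DAP, and JreChr11G11555 in the bottom row lies at the opposite ends.

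A gene was called switched on where it was under 0.5 FPKM in all 3 libraries of 35 DAP and at least 5 FPKM in all 3 of 147 DAP, and switched off where the reverse held. These are descriptions of levels and not a test. By this rule 233 genes (1.04% of those tested) were switched on and 654 (2.93%) were switched off. Near the limits, a further 100 genes met the upper limit at 147 DAP but had their highest library of 35 DAP between 0.5 and 1 FPKM. For the other direction this number was 258. The genes switched on were fewer but reached higher levels. Their median was 24.8 FPKM at 147 DAP, 58 of them were over 100 FPKM and 11 over 1000 FPKM, and together they made up 12.1% of the FPKM sum there. The genes switched off had a median of 13.5 FPKM at 35 DAP, with 40 over 100 FPKM and 3 over 1000 FPKM, and made up 2.92% of the sum. Of the 233 genes, 69 were listed at 0 in all 3 libraries of 35 DAP, and of the 654 genes, 190 were listed at 0 in all 3 libraries of 147 DAP. Both groups lay on all 16 chromosomes, and their median span was 1491 bases for the genes switched on and 2060 for those switched off, against 2994 for all tested genes.

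Most genes switched off had left their young level by 63 DAP, whereas the genes switched on appeared over the whole course. Of the 654 genes switched off, 120 were still at 5 FPKM or more in all 3 libraries of 63 DAP, but only 12 at 91 DAP and 9 at 119 DAP. Under 0.5 FPKM in all 3 libraries were 63 of them at 63 DAP, 328 at 91 DAP and 318 at 119 DAP. The median over these genes was 13.5, 2.14, 0.325, 0.338 and 0.0600 FPKM in order of age. Of the 233 genes switched on, 70 were still under 0.5 FPKM in all 3 libraries of 63 DAP. This number was 45 at 91 DAP and 11 at 119 DAP. In this group 38 genes had reached 5 FPKM in all 3 libraries of 63 DAP, 80 at 91 DAP and 115 at 119 DAP. Here the median was 0.0576, 1.06, 2.94, 8.79 and 24.8 FPKM. The highest stage mean was at 147 DAP in 200 of the 233 genes, and the means increased at every step in 130. The middle libraries were not used to choose either group, although the ends of the course were fixed by the rule.

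**Figure D3:**
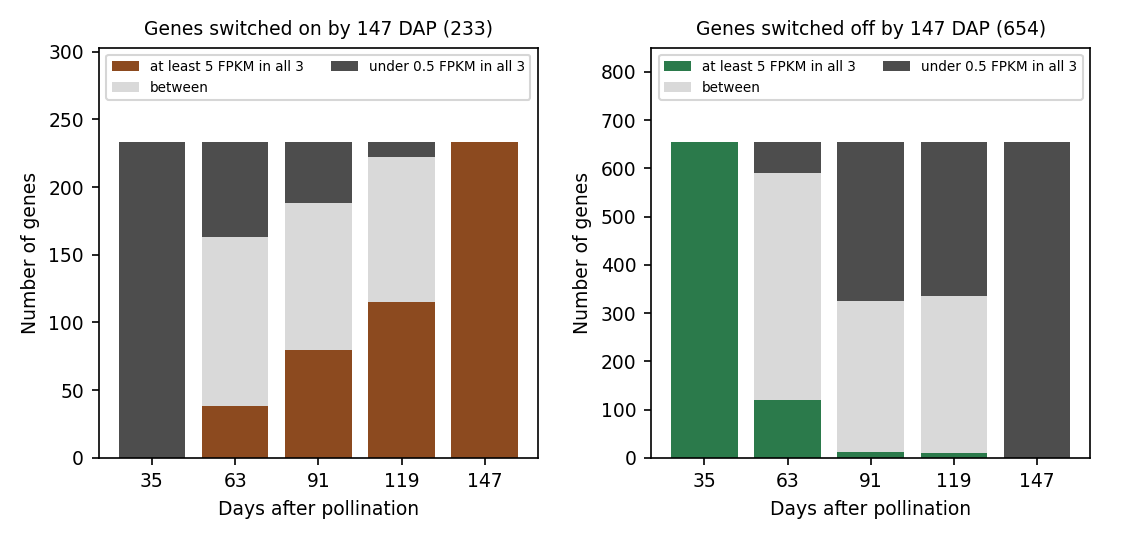
Number of genes (y axis) at each stage (x axis, days after pollination) for the 233 genes switched on (left) and the 654 genes switched off (right) between 35 and 147 DAP. Colored parts are genes at 5 FPKM or more in all 3 libraries of the stage, dark parts are genes under 0.5 FPKM in all 3, and light grey parts are the rest. At 91 DAP 328 of the genes switched off are under 0.5 FPKM in all 3 libraries, and 80 of those switched on are at 5 FPKM or more in all 3.

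Of the genes switched on, 16 had an annotation. The most abundant of them at 147 DAP, JreChr01G10577 (chromosome 1, 17637405 to 17638411), listed as embryonic protein DC-8, had 0.0960, 0 and 0 FPKM at 35 DAP and 2888, 1652 and 2895 FPKM at 147 DAP. DC-8 is a late embryogenesis abundant (LEA) protein, one of the hydrophilic proteins that plants make as seeds lose water. No annotated gene changed more (log2 change 11.18, standard error 0.46, limma adjusted p = 5.4e-11). A second DC-8 gene, JreChr01G12905, went from 0.0813 to 52.4 FPKM as stage means. JreChr13G10876, a core histone whose listed Arabidopsis homolog is an H2B variant, was listed at 0 in the 3 libraries of 35 DAP and had 93.6, 58.4 and 120.4 FPKM at 147 DAP. The glutelin JreChr03G12610, a storage globulin of the cupin family, is described with the storage genes below. JreChr08G11424, described as containing subunit A of the transcription initiation factor TFIID, had a mean of 49.8 FPKM at 147 DAP and was listed at 0 at 35 DAP. JreChr01G13452, an isoflavone reductase homolog, had 37.2 FPKM, and JreChr06G11553, a C2H2 zinc finger gene, had 36.2 FPKM at 147 DAP. The beta-galactosidase JreChr03G11965, of a family that trims galactose from cell wall chains, was a late case. Its mean was 0 at 35 DAP, 0.692 FPKM at 119 DAP and 23.8 FPKM at 147 DAP.

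Of the genes switched off, 49 had an annotation. JreChr03G11093 (chromosome 3, 21761203 to 21767663), a gene with a plastocyanin-like domain, had 146, 184 and 127 FPKM at 35 DAP and 0, 0.0327 and 0 FPKM at 147 DAP. Genes of this domain class include the early nodulin-like proteins of the cell surface. JreChr13G10837, a precursor of phytosulfokine, a secreted peptide that promotes cell growth, had 51.6, 34.1 and 57.2 FPKM at 35 DAP and 0, 0.462 and 0 FPKM at 147 DAP. JreChr08G12053, of the auxin-responsive SAUR family, and JreChr12G11788, a gibberellin-regulated GASA gene listed as GASR5, had means of 47.2 and 34.4 FPKM at 35 DAP and were listed at 0 in all 3 libraries of 147 DAP. Both beta-glucosidases JreChr12G11347 and JreChr12G11254 behaved likewise, from means of 49.3 and 29.4 FPKM. They lie next to each other on chromosome 12 with the same listed homolog, so reads may have been split between them. The receptor kinase JreChr16G10771 and the kinase-domain gene JreChr06G11582 had 43.5 and 37.8 FPKM at 35 DAP and 0.246 and 0 FPKM at 147 DAP. The libraries of a stage were alike for these genes, and no library of 147 DAP reached 0.5 FPKM, as the rule requires.

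The 10 largest falls among all annotated genes were of several kinds. JreChr16G10714 (chromosome 16, 2023735 to 2024175), a gibberellin-regulated GASA gene listed as GASR3, had 1444, 1202 and 2060 FPKM at 35 DAP and 2.40, 1.69 and 7.07 FPKM at 147 DAP. Every library of 35 DAP was more than 100 times as high as every library of 147 DAP. The level fell by 8.51 on the log2 scale (standard error 0.36, limma adjusted p = 7.79e-11). Its mean was already 19.3 FPKM at 63 DAP. Next came JreChr04G11098, an expressed protein of unknown function, which had 219 FPKM at 35 DAP and still 237 FPKM at 119 DAP, but 0.417 FPKM at 147 DAP. The pectinesterase JreChr03G12057, which removes methyl groups from wall pectin, fell from 193 to 1.13 FPKM and at each stage on the way. The lipid transfer protein genes JreChr03G12410 and JreChr13G11259 fell from 222 and 85.5 FPKM to 1.24 and 0.516. The beta-glucosidase JreChr13G10442 fell from 285 to 3.42 FPKM, JreChr16G10751, which carries an asparaginase domain, from 294 to 3.67 and the basic helix-loop-helix (bHLH) transcription factor gene JreChr11G10834 from 100.5 to 0.872. The cyclin JreChr16G10753, a subunit that drives the cell cycle, had 224, 189 and 245 FPKM at 35 DAP and 1.33, 8.14 and 2.32 FPKM at 147 DAP, a fall of 5.73 on the log2 scale (standard error 0.35, adjusted p = 3.49e-09 from limma).

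Functional groups, 18 in all, were then read from the descriptions and domains, and each is given by its counts beside the 24.0% higher and 43.7% lower of all tested genes. The cell cycle and chromatin group, with cyclins, kinesins, histones and replication proteins, had the lowest median of the 18 groups. Of its 18 tested members 14 fell, 1 rose and 3 did not pass the test, and the median log2 change was -2.72. Of these, 7 were switched off: the kinesins JreChr09G12371, JreChr13G10468, JreChr12G10975 and JreChr12G10656, motors that move along microtubules, and the cyclins JreChr06G11603, JreChr06G11540 and JreChr16G10730, all named after their values were seen. Their means lay between 6.03 and 14.4 FPKM at 35 DAP and were at most 0.140 FPKM at 147 DAP. The 1 member that rose was the histone gene JreChr13G10876 (log2 change 6.46). The DNA polymerase epsilon gene JreChr13G10807 had 4.74 and 4.97 FPKM and did not pass the test.

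Of 22 tested cell wall genes, 17 fell, 3 rose and 2 did not pass the test, with a median of -1.68. Beside the pectinesterase JreChr03G12057 above, the fallen genes included 4 that were switched off: the endoglucanases JreChr07G10967 and JreChr11G11987, the expansin JreChr14G11403 and the pectinesterase JreChr09G12425, enzymes and proteins that loosen the wall of growing cells. The 3 that rose were JreChr13G10746 and JreChr13G10430, glycosyl hydrolases of families 17 and 16, and the expansin JreChr13G11349. JreChr13G10746 had 7.89, 9.68 and 8.14 FPKM at 35 DAP and 119, 114 and 111 FPKM at 147 DAP (log2 change 3.61, standard error 0.17, adjusted p = 1.64e-10 from limma). Proteases had a median of -2.53, with 13 of 19 tested members lower and 2 higher. The 6 tested serine carboxypeptidases and the 3 subtilisins all fell, while aspartic proteases lay on both sides. The largest fall was that of the carboxypeptidase JreChr06G11597 (53.1 to 0.688 FPKM, log2 change -5.00). Lignin and wall oxidation genes were scarce, as only 4 of 24 listed members passed the filter on low values. All 4 fell, from means of at most 7.51 FPKM. A filter on level favours members that are high in some stage, so this count is no finding about the group. The peroxidase JreChr16G10373 had 2.40, 1.74 and 1.86 FPKM at 35 DAP and means of at most 0.0210 FPKM at later stages. It passed the filter through 35 DAP alone and could only fall. Of 17 tested genes of lipids, wax and cuticle 8 fell (47.1%) and 2 rose (11.8%). The share that fell was near the 43.7% of all tested genes. The group medians of cell cycle, cell wall and protease genes stayed at or under -1.43 with each of the 4 other scalings.

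**Figure D4:**
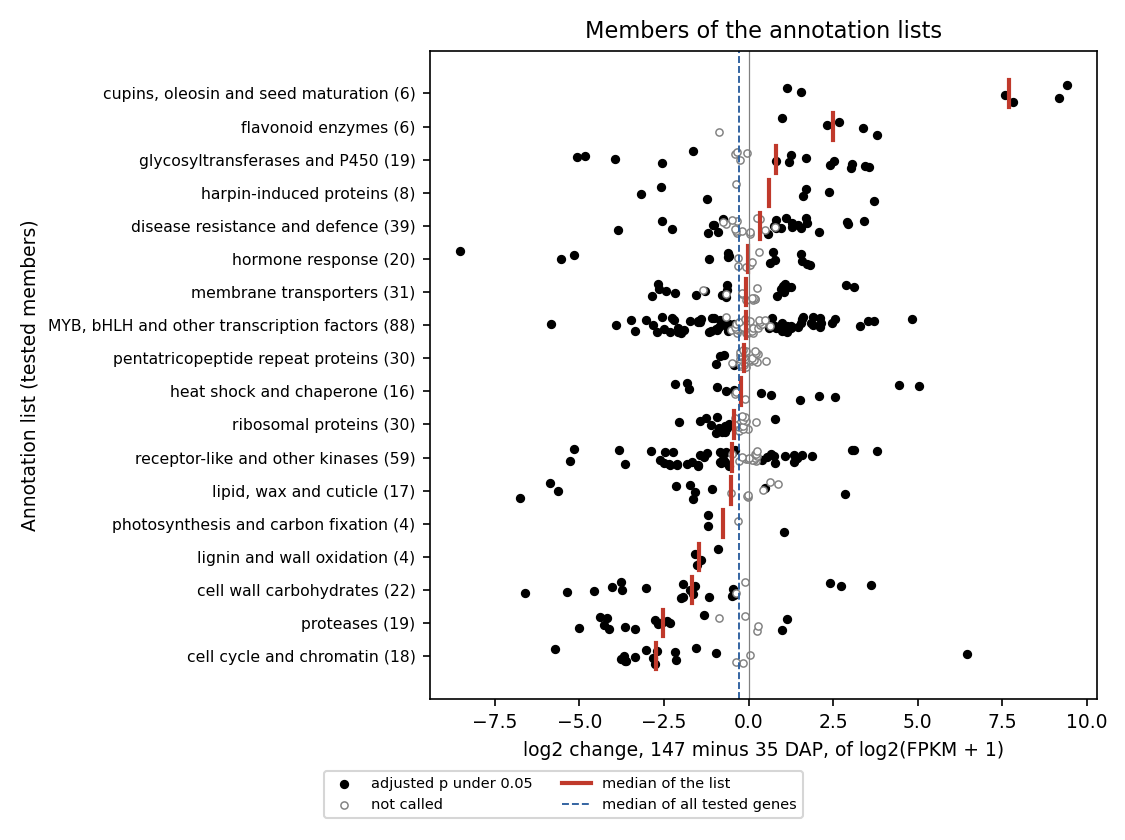
log2 change of log2(FPKM + 1) from 35 to 147 DAP (x axis) for each tested member of the 18 annotation lists (rows, with the number of tested members). Filled points passed an adjusted p of 0.05 in limma and open points did not, the red bar is the median of the list and the dashed line the median of all tested genes at -0.27. Cell cycle, protease and cell wall lists lie to the left with medians of -2.72, -2.53 and -1.68, and the storage and flavonoid lists lie to the right with medians of 7.70 and 2.50.

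Storage and seed maturation genes stood at the other end. Of 17 listed members only 6 passed the filter on low values, and these 6 rose, with a median log2 change of 7.70. A filter on level favours members that are high in some stage, so this count covers the expressed members alone; of the other 11, all cupins, none exceeded 1.05 FPKM in the 6 libraries. The oleosin JreChr12G10222 (chromosome 12, 13438302 to 13438769), a coat protein of oil bodies, had 0.276, 0.920 and 0.334 FPKM at 35 DAP and 1335, 666 and 1150.1 FPKM at 147 DAP (log2 change 9.41, standard error 0.36, limma adjusted p = 2.81e-11). Its stage mean increased at every step. The glutelin JreChr03G12610 had at most 0.110 FPKM at 35 DAP and 250.4, 671 and 1324 FPKM at 147 DAP, and its neighbour JreChr03G12612 had at most 1.29 FPKM and then 112, 562 and 549 FPKM. At 119 DAP the mean of JreChr03G12610 was 3736 FPKM ± 3230.2 (SD, n = 3), against 749 ± 541 (SD, n = 3) at 147 DAP. JreChr03G12612 had 3177, 10963 and 1675 FPKM at 119 DAP, so its mean of 5272 rests largely on replicate 2, but each library was above those of 147 DAP. As the 2 glutelin genes have the same listed homolog, reads may have been shared and their separate values are uncertain. The LEA gene JreChr01G10579, close to the DC-8 gene on chromosome 1, rose from 0.721 to 393 FPKM. Both copies of PM23, a seed maturation protein (JreChr06G11567 and JreChr06G11626), rose by 1.56 and 1.15 on the log2 scale from means of 19.98 and 49.3 FPKM.

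Glutelin and oleosin are products of the embryo, which lies against the seed coat, and they also served as markers of embryo. The 4 embryo markers, these 3 genes and the fatty acid desaturase JrFAD2, summed to 8.60, 23.4 and 6.18 FPKM in the libraries of 35 DAP and to 1708, 1926 and 3043 FPKM in those of 147 DAP, or 0.153% to 0.290% of the FPKM sum. None of the 4 was listed at 0 throughout a stage, and 3 of the 4 rose. The sums were higher in between, from 4970 to 9975 FPKM in the libraries of 91 DAP and from 3495 to 19888 FPKM in those of 119 DAP. Embryo RNA in the pools and expression by the seed coat itself cannot be told apart here, and the part of the embryo in the rise of storage, LEA and other genes was not tested. JrFAD2 (JreChr13G11197), which introduces the second double bond into oleic acid, had 8.13, 21.4 and 4.56 FPKM at 35 DAP and 11.3, 26.3 and 19.7 FPKM at 147 DAP. The stages overlapped and the change did not pass the test (log2 change 0.87, adjusted p = 0.194 from limma), although its mean had been 309 FPKM at 119 DAP.

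The flavonoid group holds 10 genes taken by their descriptions, and whether each acts in the flavonoid pathway was not tested. Of these 6 passed the filter, and 5 of the 6 rose and none fell, with a median log2 change of 2.50. Chalcone synthase (JreChr02G10304, chromosome 2, 15646385 to 15648212), the entry enzyme of the pathway, had 63.9, 48.2 and 47.8 FPKM at 35 DAP and 571, 1088 and 683 FPKM at 147 DAP. The mean was 14.6 times as high (log2 change 3.80, standard error 0.38, adjusted p = 5.59e-07 from limma). JrANR (JreChr09G12363, chromosome 9, 7498722 to 7501474), the anthocyanidin reductase that makes the epicatechin units of condensed tannins, had 83.5, 71.0 and 72.6 FPKM at 35 DAP and 706, 1058 and 661 FPKM at 147 DAP, a mean 10.7 times as high. Replicate 2 was the highest library of 147 DAP for both genes. JreChr11G10846 and JreChr11G10794, described as dihydroflavonol-4-reductase with the listed Arabidopsis homolog AT2G23910, went from 9.08 and 1.87 FPKM to 65.3 and 13.3 FPKM. JreChr13G10907, described as flavonol synthase with the listed homolog AT3G13610, went from 8.40 to 17.7 FPKM. JrLDOX (JreChr03G12442), described as leucoanthocyanidin dioxygenase with the listed homolog AT1G49390, did not rise. It had 10.001, 12.8 and 4.11 FPKM at 35 DAP and 3.87, 4.29 and 3.90 FPKM at 147 DAP (log2 change -0.87, adjusted p = 0.0575 from limma), a difference that rests on replicates 1 and 2 of 35 DAP. Without replicate 3 of 35 DAP, the lowest of its stage, the change was -1.29 with an adjusted p of 0.00686, and with libraries rescaled to the same sum it was -1.12 with an adjusted p of 0.0199, so that JrLDOX was then called lower. A second leucoanthocyanidin dioxygenase, a second flavonol synthase-like gene and 2 anthocyanidin glucosyltransferases stayed under 0.5 FPKM in all 6 libraries.

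**Figure D5:**
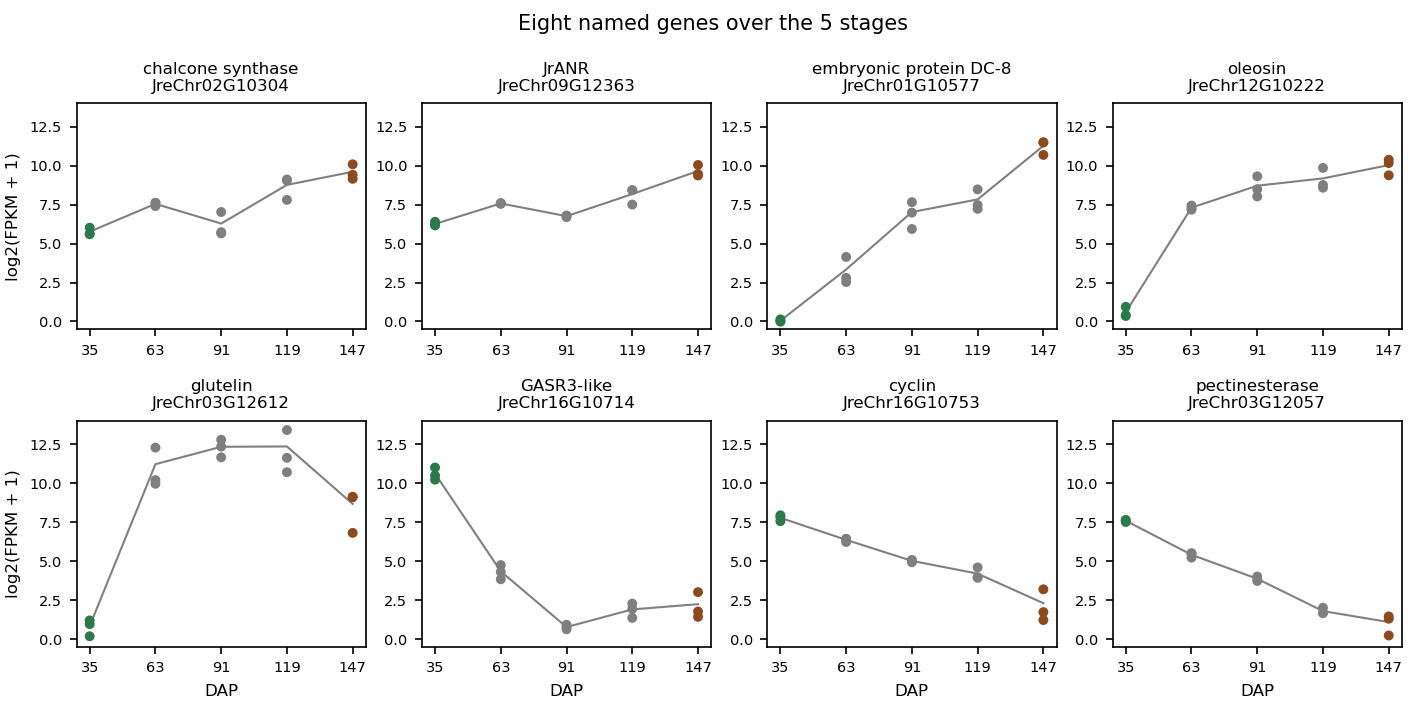
log2(FPKM + 1) (y axis) against days after pollination (DAP, x axis) for 8 genes named in the text. Points are single libraries, 3 per stage, with 35 DAP in green, 147 DAP in brown and the middle stages in grey, and the line joins the values of the stage means. Chalcone synthase, JrANR, DC-8 and oleosin are highest at 147 DAP, the glutelin JreChr03G12612 is higher at 63 to 119 DAP than at 147 DAP, and the GASR3-like gene has lost most of its level by 63 DAP.

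Several groups had members on both sides. Of 16 tested heat shock and chaperone genes 7 rose and 6 fell, while with equal sums 5 were higher and 7 lower. Among them, small heat shock proteins, chaperones that hold unfolding proteins, lay on both sides. JreChr14G11646 had 3.87, 1.57 and 2.70 FPKM at 35 DAP and 109, 99.3 and 146 FPKM at 147 DAP (log2 change 5.03, standard error 0.47, adjusted p = 2.65e-07 from limma), whereas JreChr16G10765 of the same Hsp20 family fell from 5.11 to 0.452 FPKM. Of 88 tested transcription factor genes 30 rose and 33 fell. Their median was -0.08, and it turned to 0.09 with median-ratio scaling and 0.40 with quantile normalization, so no direction is given for the group. Within it the AP2 domain had the highest median, 1.69, of the 30 protein domains with at least 8 tested genes. Next came the UDP-glycosyltransferase domain with 1.20. Of the 10 tested genes with the AP2 domain 9 rose and 1 fell. The most changed was JreChr15G12147, with 0.429, 1.81 and 1.113 FPKM at 35 DAP and 61.9, 38.4 and 78.6 FPKM at 147 DAP (log2 change 4.84). Also among the 10 largest rises of annotated genes was the cysteine proteinase inhibitor JreChr01G10940, from 0.527 to 206 FPKM. JreChr10G12195 and JreChr07G10271, both listed as expressed proteins, rose from 2.38 and 2.17 FPKM to 312 and 234 FPKM. The C2H2 zinc finger gene JreChr06G11609 rose from 0.599 to 133 FPKM. JreChr06G11553, with the same listed homolog, was among the genes switched on, so reads may have been shared between these 2 genes.

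At the low end of the 30 domains lay the leucine-rich repeat N-terminal domain of receptor kinases and related surface proteins, with 13 of 18 tested genes lower, 2 higher and a median of -1.65. Over all kinases 30 of 59 tested members fell (50.8%) and 15 rose (25.4%), near the 43.7% and 24.0% of all tested genes. With quantile normalization 24 kinases were higher and 23 lower, so no direction is given for the group. JreChr14G11410, a WNK-type kinase, had the largest rise of the kinases, from 1.28 to 30.5 FPKM. UDP-glycosyltransferases, which attach sugars to small molecules such as phenolics and hormones, were split: 8 of 13 rose, 3 fell and the median was 1.20. Of the 8, 4 lie between 21533148 and 21805984 on chromosome 1: JreChr01G10875, JreChr01G10877, JreChr01G10881 and JreChr01G10902. The count and the median may thus rest in part on shared reads. On chromosome 1, between 21533148 and 21620824, JreChr01G10875, JreChr01G10877, JreChr01G10881 and JreChr01G10884 were switched on together, 4 of the 5 tested genes of that stretch, and all 4 are annotated as glycosyltransferases. They reached only 8.45 to 12.2 FPKM. They lie close together with like annotations, so reads may have been shared and the single values are uncertain. In contrast the limonoid glucosyltransferase homolog JreChr06G11574 fell from 73.7 to 1.18 FPKM.

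Genes with the wound-induced protein domain rose in 11 of 18 tested genes and fell in 3. Of 39 tested defence genes as a whole 17 rose and 8 fell, with a median of 0.35. Bet v I genes, of the family of the birch pollen allergen, went opposite ways: JreChr05G11366 rose from 24.0 to 231 FPKM, and JreChr01G13944 fell from 19.2 to 0.314 FPKM. Harpin-induced genes, which carry a LEA domain, also divided, with 4 higher and 3 lower of 8. JreChr05G12191 rose from 7.40 to 105 FPKM and JreChr10G10274 fell from 11.2 to 0.355 FPKM. Of 31 tested transporters 9 rose and 11 fell, led by the malate channel homolog JreChr13G10586 (1.01 to 16.2 FPKM) and the MATE efflux gene JreChr01G13593 (136 to 18.4 FPKM). Of 20 tested hormone genes 7 rose and 7 fell, but the summed level of the 31 listed members went from 1479 to 2351 FPKM at 35 DAP down to 184 to 201 FPKM at 147 DAP. GASR3 (JreChr16G10714) alone held 1202 to 2060 FPKM of it at 35 DAP.

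Of 30 tested pentatricopeptide repeat genes, which process RNA in organelles, 4 fell and none rose, with a median of -0.12. The direction depended on the scaling, since quantile normalization called 19 higher and 1 lower, with a median of 0.53, and equal sums called 0 higher and 10 lower. Of 30 tested ribosomal protein genes 15 fell and 1 rose (23 and 1 with equal sums), with a median of -0.44 that lay between -0.69 and -0.20 with the other scalings. The one that rose, JreChr14G11407, had at most 2.03 FPKM, and its call was lost without replicate 1 of 147 DAP (adjusted p = 0.0968 from limma) or without replicate 2 of 35 DAP (adjusted p = 0.0704). Photosynthesis genes were few, with 4 of 10 passing the filter. The chlorophyll A-B binding gene JreChr04G11926 rose from 26.7 to 57.1 FPKM, while JreChr10G10089 fell from 6.08 to 2.06 and the carbonic anhydrase JreChr06G10415 from 3.02 to 0.760 FPKM. The RuBisCO methyltransferase homolog JreChr07G10220 had 4.21 and 3.18 FPKM and did not pass the test. The other members, among them RuBisCO small chain JreChr15G10361, stayed at or under 1.06 FPKM in all 6 libraries.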

How the data were processed

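RNA was sequenced from endopleura pooled from 7 nuts per library, with 3 libraries at each of 5 stages. Reads were mapped by the authors with HISAT2 2.1.0 on the J. regia genome of the study, and StringTie 1.3.5 gave the FPKM values that were deposited; counts were not used here. The annotation build beyond the authors' genome is not given in the sources used here. Coordinates are those of the deposited table.

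Values were used as log2(FPKM + 1), with a pseudocount of 1. A gene entered the test if 3 or more of the 15 libraries had 1 FPKM or more. The test was limma (version 3.58.1, R 4.3.3) with lmFit and eBayes (trend on), all 15 libraries in one fit with 1 coefficient per stage, and p-values were adjusted over the 22310 genes by the Benjamini-Hochberg method at 0.05. Fold changes on this scale understate those of low genes. The fit was tested on simulated data. Measures of a single value per library were given an exact two-sided permutation test. An exact 0 in the table can be a failed estimate, so such genes are described as listed at 0 and no ratio of FPKM is given. The log2 changes printed for some of them depend on the pseudocount of 1. Relative depth came from the steps between values under 0.2 FPKM that rest on single reads. Python 3.11.15 with numpy 2.4.6, pandas 2.3.3, scipy 1.17.1 and matplotlib 3.10.9 was used.

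Genes named are the 10 highest at either stage, and the annotated genes with the 10 largest rises and falls without overlap (over all genes, the 3 largest). They also include the 8 most abundant annotated genes switched on and off, the extremes of most lists, JrANR, JrFAD2 and flavonoid, storage and photosynthesis members. Others are said to be so or were named after their values were seen, as were the domain families. Members, lists and tests were chosen with earlier results of these data known. Annotations come from 5 supplementary gene tables, of which 2 were held only in part. Of the gene identifiers 0 matched the RefSeq table, and sequences are therefore not shown. Alternatives were a pseudocount of 0.1, 4 other scalings (1 of them, equal sums outside the 10 highest genes, chosen after seeing the data), no filter, a mean of at least 5 FPKM, a block for the replicate number, no trend, a fit of the 6 libraries alone, a log2 change of 1 or more, other limits for switched genes, fewer annotation tables and each of the 6 libraries left out.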

Additional observations from a re-analysis of the deposited data

How the results depend on the processing

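The counts of genes kept their side of the balance, more lower than higher, in each setting but quantile normalization, which called 7871 genes higher and 7647 lower. Rescaling to equal sums called 3977 higher and 11915 lower, and median-ratio scaling 7077 and 8101. A minimum log2 change of 1 left 8974 changed genes, 3043 higher and 5931 lower. Leaving out each of the 6 libraries in turn gave 14001 to 14686 changed genes, 4836 to 5152 higher and 9002 to 9761 lower. The replicate numbers did not pair the samples, since same-numbered libraries of both stages deviated with r between -0.08 and -0.03, and a fit with the replicate block called 5255 genes higher and 9616 lower. Summed over the 18 annotation lists 297 members passed the test, against 167 with a mean of at least 5 FPKM and 129 with only 2 of the 5 annotation tables, where fewer genes were tested. Without 1 library the number was 282 to 290. With an off limit of 0.1 FPKM 106 genes were switched on and 296 off, and with an on limit of 10 FPKM 382 were switched off, as the narrower limits imply. Without 1 library the numbers were 243 to 271 and 680 to 786. The difference in the share of the 10 highest genes, 18.8 percentage points, lay between 17.5 and 20.5 without 1 library, and the difference in genes needed for 50% of FPKM between -866 and -745. Of 1379 values of 87 named genes under alternatives, 1357 kept their direction and call. One reversed: JreChr07G10220, not called as deposited, had 0.28 with quantile normalization. JreChr11G12006 was not called without the filter (adjusted p = 0.167), and the cause was not tested. Absolute depth is unknown, so values under about 1 FPKM carry an unknown counting error.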

Other observations

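Switched genes were in places close together on a chromosome. With steps of at most 100 kb between gene starts and at least 4 genes, a limit chosen after seeing the data, 8 such runs were found, 3 of genes switched on and 5 of genes switched off. On chromosome 9, between 9018266 and 9154938, 8 of the 16 tested genes were switched off, with means at 35 DAP from 6.06 to 900.3 FPKM. The neighbours JreChr09G12554 and JreChr09G12555 were the highest of them. On chromosome 1, between 44395940 and 44540752, 4 of 8 tested genes were switched off, JreChr01G12620, JreChr01G12624, JreChr01G12634 and JreChr01G12636. JreChr01G12620 had 1095, 2504 and 1031 FPKM and JreChr01G12634 had 782, 1929 and 614 FPKM at 35 DAP, and both were listed at 0 in all 3 libraries of 147 DAP. Replicate 2 was more than 2 times as high as the others in both genes. On chromosome 11, between 1955829 and 2116724, 6 of 12 tested genes were switched on, with means at 147 DAP from 9.02 to 451 FPKM. None of these genes has a function in the tables, tandem copies may share reads, and how often such runs arise by position alone was not tested.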
